A study of Mus musculus with 13 samples.

Results

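The mouse genes whose symbols begin with Timm or Tomm, most of them parts of the machinery that carries proteins into mitochondria, were followed in gastrocnemius muscle across 3 treatments. All genes with these symbol beginnings were taken, pseudogenes excluded, which gave 26 genes among the 21868 rows of the count table, 16 Timm and 10 Tomm. All 26 are protein-coding in the annotation. RNA came from 13 male mice, C57BL/6 in the labels and C57BL/6N in the study's description of these samples. The mice were 7 weeks old at the start and had 1 week of acclimatization. They were then fed a diet with 60 kcal% fat for 15 to 17 weeks and moved to chow. For the last 3 weeks, 5 vehicle-treated mice (mice 1 to 5) received phosphate-buffered saline, 5 semaglutide-treated mice (mice 13 to 17) received the GLP-1 receptor agonist semaglutide intraperitoneally at 30 nM/kg/day, and 3 semaglutide + ketone ester–treated mice (mice 19, 21 and 22) received the same semaglutide and drank water that held a ketone ester (0.114 g/mL). All 3 groups therefore share the earlier obesity and the change to chow, and no group received the ketone ester alone. The labels give 1 batch for all mice and name the treatments vehicle + placebo, semaglutide + placebo and semaglutide + ketone ester.

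Most mitochondrial proteins are encoded in the nucleus, made in the cytosol and imported. Precursors are recognised by receptors of the TOM complex of the outer membrane and pass its pore, and from there they are sorted. The TIM23 complex of the inner membrane takes up precursors with a cleavable presequence, and the TIM22 complex inserts carrier proteins, such as the ADP/ATP carrier, that are brought to it by small Tim chaperones of the intermembrane space. Skeletal muscle is rich in mitochondria, and its fibers depend on this route for the respiratory chain.

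Values below are normalized read counts, that is, reads counted on a gene after the authors had scaled each library. The scaled libraries did not have equal totals. A log2 difference is a difference of group means of log2(normalized count + 1). Between 15319471 and 23498162 reads were counted on genes per mouse, with a median of 16501686. Genes with a mean of at least 10 over the 13 mice were tested with limma, with Benjamini-Hochberg adjustment over all 12303 of them, and a gene is called higher or lower where the adjusted p is under 0.05. Of the 26 genes, 24 reached this level. Timm8a2, a copy of Timm8a1, and Tomm20l, a copy of Tomm20, were listed with 0 reads in all 13 mice, where 3 reads would correspond to 2.24 to 3.71 normalized counts.

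Skeletal muscle markers were abundant in every mouse, with the summed counts of 8 of them between 1459078 and 3602525. Semaglutide mouse 13 stood apart from its group. On the first principal component of all tested genes, which held 38.1% of the variance, its score was -9.12, compared with 31.8 to 52.5 in the other 4 semaglutide-treated mice. Vehicle-treated mice scored -24.5 to -12.8, and semaglutide + ketone ester–treated mice scored -25.6 to -15.8. The numbers of genes called are therefore also given without it, as are the values of the called import genes. Markers of other cell types also moved with treatment. In semaglutide-treated mice, 4 of 5 fibroblast markers, 4 of 5 tenocyte markers and 2 of 4 smooth muscle markers were called lower than in vehicle-treated mice, the fibroblast sums were 4625 to 6371 compared with 5120 to 11723, and the sums of 5 red blood cell genes were 50.5 to 3148 compared with 1356 to 2291. The skeletal muscle markers Myh4 (-0.60) and Acta1 (-0.46), 2 of 8, were also called lower. The satellite cell marker Cdh15, 1 of 3, was called higher (1.15). No adipocyte, endothelial, macrophage, Schwann cell or red blood cell marker was called in this comparison. Between semaglutide + ketone ester–treated and semaglutide-treated mice, 4 of 5 red blood cell genes, 3 of 5 fibroblast markers, 2 of 5 tenocyte markers and 4 of 8 skeletal muscle markers were called higher. The endothelial marker Kdr, 1 of 5, was also called higher (0.41). The tenocyte marker Scx and the satellite cell marker Cdh15 (-1.20) were called lower, and no adipocyte, macrophage, Schwann cell or smooth muscle marker was called. None of these markers was at 0 in every mouse. In whole muscle, fewer cells of a type and less RNA per cell cannot be told apart, and the part of these markers in the results below was not tested.

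Promoters of 3 genes are shown because their transcripts carry the differences described below, Timm22 and Timm29 of the carrier translocase, which were lower under semaglutide, and Tomm40, the pore of the outer membrane, which was higher. Each window runs from 250 bases before to 50 bases after a RefSeq transcription start (GRCm38.p6, the build also called mm10), is written 5′ to 3′ on the strand of the gene, and has in capitals any match to the motifs named below. Timm22 has a second, overlapping window in the same source that is not printed.
Timm22, chr11:76406675-76406974, plus strand: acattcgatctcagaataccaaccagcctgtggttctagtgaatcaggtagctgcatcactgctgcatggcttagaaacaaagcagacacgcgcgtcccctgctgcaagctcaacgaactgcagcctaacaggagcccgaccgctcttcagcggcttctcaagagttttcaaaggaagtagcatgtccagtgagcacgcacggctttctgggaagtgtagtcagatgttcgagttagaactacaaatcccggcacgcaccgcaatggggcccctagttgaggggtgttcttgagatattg
Timm29, chr9:21592472-21592771, plus strand: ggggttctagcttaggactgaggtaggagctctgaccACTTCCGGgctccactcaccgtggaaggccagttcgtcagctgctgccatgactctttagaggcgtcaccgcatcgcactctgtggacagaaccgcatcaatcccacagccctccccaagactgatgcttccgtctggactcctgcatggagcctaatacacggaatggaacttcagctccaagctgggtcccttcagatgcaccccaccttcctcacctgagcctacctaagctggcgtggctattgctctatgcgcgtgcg
Tomm40, chr7:19715380-19715679, minus strand: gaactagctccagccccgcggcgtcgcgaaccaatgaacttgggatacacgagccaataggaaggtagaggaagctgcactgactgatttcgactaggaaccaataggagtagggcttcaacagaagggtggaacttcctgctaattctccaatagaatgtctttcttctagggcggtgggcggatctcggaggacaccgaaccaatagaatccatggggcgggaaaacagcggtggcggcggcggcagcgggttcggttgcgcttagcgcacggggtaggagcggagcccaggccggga

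Windows were found for 23 of the 26 genes, and not for Tomm40l, Timm21 and Tomm7. They were searched on both strands for the letters of motifs bound by regulators of mitochondrial or stress-responsive genes. The ETS motif CCGGAAGT was found in the windows of 7 of the 23 genes (Timm10, Timm10b, Timm23, Timm29, Timm8a2, Timmdc1 and Tomm70a) and in 3.89% of all 32851 windows. The capitals in the Timm29 window are this motif on the opposite strand, starting 213 bases before the start site. The E-box CACGTG was found for 5 genes and in 7.15% of all windows, the ERR half-site AAGGTCA for 3 and in 4.72%, the NRF1 motif for 2 and in 4.60%, and the ATF4-C/EBP motif TGATGNAA for 0 and in 3.97%. The printed Timm22 and Tomm40 windows hold none of these 5 motifs. A match is a run of letters and not evidence of binding.

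In vehicle-treated mice the 24 genes covered a wide range of transcript levels. Counts per kilobase of the principal transcript were highest for Timm8b at 1597 ± 133, Timm23 at 1387 ± 127 and Tomm6 at 1183 ± 96.6 (SD, n = 5). The ranges of neighbouring genes in this order overlapped among the vehicle-treated mice, 1400 to 1754 for Timm8b, 1246 to 1535 for Timm23 and 1083 to 1322 for Tomm6. They were lowest for Tomm34 at 108 ± 7.46, Timm10b at 83.1 ± 3.99 and Timm8a1 at 76.7 ± 9.09 (SD, n = 5). These levels use 1 transcript length per gene, whereas the counts include all isoforms. For Tomm6, 76.0% of the exonic bases are shared with a read-through gene on the same strand, Gm21981, with a mean count of 9.90.

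The first question was which of these genes differed between semaglutide-treated and vehicle-treated mice. Timm22, Timm29 and Tomm40l were lower and Tomm40 was higher, with changes between -33.1% and -21.2% for the former and of 28.3% for Tomm40, and the other 20 genes were not called. The quasi-likelihood test of edgeR and DESeq2, on the recovered reads, called the same 4 genes. The 3 lower genes make up 12.5% of the 24 tested, and 13.2% of all 12303 genes were called lower. The 1 higher gene makes up 4.17%, and 11.9% of all genes were called higher. Groups did not overlap for 2 of the 24 genes, Timm29 and Tomm40, and for 14.7% of all genes. The share of import genes called lower was thus close to that of all genes. The number called lower depended on the mice: it was 0 without vehicle mouse 1, 1 without vehicle mouse 5 or semaglutide mouse 15, 16 or 17 (Timm29 each time), 1 without vehicle mouse 3 (Timm21, which was not called with all mice, adjusted p = 0.036), 2 without vehicle mouse 2 or 4, and 6 without semaglutide mouse 13, when Timm17b, Timm50 and Tomm5 were added and 18.8% of all genes were called lower.

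**Figure D1:**
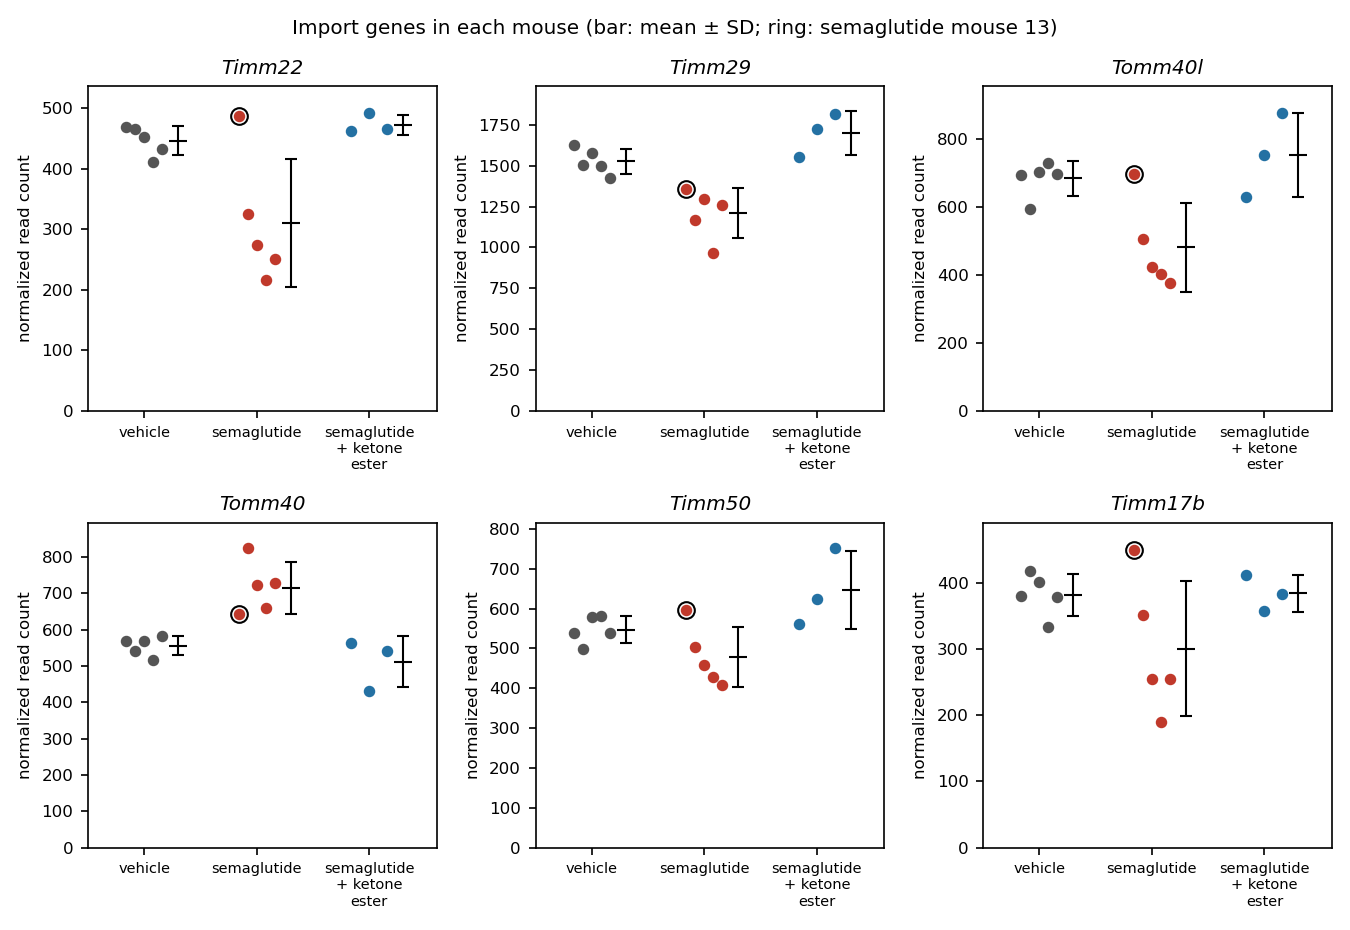
Normalized read counts (y axis, from 0) of 6 import genes in each mouse, by group, with the group mean ± SD beside the points and a ring around semaglutide mouse 13. The semaglutide-treated mice lie below every vehicle-treated mouse for Timm29 and above every vehicle-treated mouse for Tomm40, while for Timm22 and Tomm40l mouse 13 lies among or above the vehicle-treated mice.

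Timm22 forms the channel of the carrier translocase. Vehicle-treated mice 1 to 5 had counts of 469, 465, 452, 411 and 433, and semaglutide mice 13 to 17 had 486, 325, 273, 216 and 251. Mouse 13 was above all vehicle-treated mice and the other 4 were below all of them. The mean fell from 446 ± 23.9 to 310 ± 106 (SD, n = 5 each), a log2 difference of -0.58 (SE 0.17, adjusted p = 0.030). This was the largest decrease of the 24 genes. The call was lost without any 1 of 7 mice (vehicle 1, 2, 3 and 5, semaglutide 15, 16 and 17), with adjusted p-values between 0.00035 and 0.074 over the 13 fits that each leave out 1 mouse, and the difference was between -0.76, without semaglutide mouse 13, and -0.46 in those fits. In a fit of only the vehicle and semaglutide groups the adjusted p was 0.054.

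Timm29, a subunit of the same carrier translocase, was lower in every semaglutide-treated mouse. Its counts in vehicle-treated mice 1 to 5 were 1626, 1505, 1578, 1499 and 1422. In semaglutide mice 13 to 17 they were 1359, 1165, 1296, 966 and 1258, so that the groups did not overlap and mouse 13 was the one closest to the vehicle-treated mice. This gave a log2 difference of -0.34 (SE 0.10, adjusted p = 0.023). It was not called without vehicle mouse 1 or vehicle mouse 3, when the adjusted p reached 0.054, and without semaglutide mouse 13 the difference was -0.39. Timm29 shares 107 exonic bases, 3.40% of its exons, with Yipf2 on the opposite strand, and it was not stated whether counting used the strand of the reads.

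Timm10b, the third Timm gene followed for this complex, encodes a small Tim that docks chaperoned carriers onto it. It did not pass the test, with 272 ± 13.1 in vehicle-treated and 314 ± 41.5 in semaglutide-treated mice (SD, n = 5 each) and an adjusted p of 0.201. Of the 3 Timm genes followed for the carrier translocase, 2 were therefore lower and 0 higher, where 13.2% and 11.9% of all genes were called.

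The pore of the TOM complex is encoded by Tomm40, and Tomm40l encodes a paralog of it. They moved in opposite directions. Tomm40 counts were 569, 540, 568, 518 and 583 in vehicle-treated mice and 643, 825, 723, 659 and 727 in semaglutide-treated mice. Every semaglutide-treated mouse, mouse 13 included, was above every vehicle-treated mouse. This gave a log2 difference of 0.36 (SE 0.09, adjusted p = 0.017), and Tomm40 remained called in all 13 fits that left out 1 mouse, with adjusted p-values of 0.0076, without semaglutide mouse 13, to 0.045. Tomm40 shares 258 exonic bases, 5.7% of its exons, with Gm20512 on the opposite strand, which is absent from the count table.

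Tomm40l counts were 696, 596, 704, 731 and 699 in vehicle-treated mice and 698, 506, 425, 405 and 376 in semaglutide-treated mice. Mouse 13 was within the vehicle range and the other 4 were below it. The log2 difference was -0.54 (SE 0.16, adjusted p = 0.027), and the call was lost without vehicle mouse 1, 3, 4 or 5 or semaglutide mouse 15, 16 or 17, when the adjusted p reached 0.069. Without semaglutide mouse 13 the difference was -0.68 (adjusted p = 0.0010). The exons of Tomm40l overlap those of Nr1i3 on the opposite strand over 64.3% of their bases, but Nr1i3 itself had a mean count of 0.40.

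Because both pore genes were counted in the same library, their ratio does not depend on how libraries are scaled. The ratio of Tomm40l to Tomm40 counts was 1.22, 1.10, 1.24, 1.41 and 1.20 in vehicle-treated mice 1 to 5. It was 1.09, 0.613, 0.588, 0.614 and 0.517 in semaglutide mice 13 to 17. All semaglutide-treated mice were below all vehicle-treated mice, mouse 13 by a small margin. On the log2 scale the mean went from 0.30 ± 0.13 to -0.60 ± 0.41, a difference of -0.90, with an exact two-sided permutation p of 0.0079, the smallest that 5 against 5 mice allow (adjusted p = 0.040 over the 9 ratio comparisons made). Without any 1 mouse the difference was between -1.08 and -0.81 and the adjusted p between 0.036 and 0.080. The adjusted p was under 0.05 only without semaglutide mouse 13, and it also depends on the p-values of the other ratio comparisons. The counts compare reads on each gene and not protein.

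**Figure D2:**
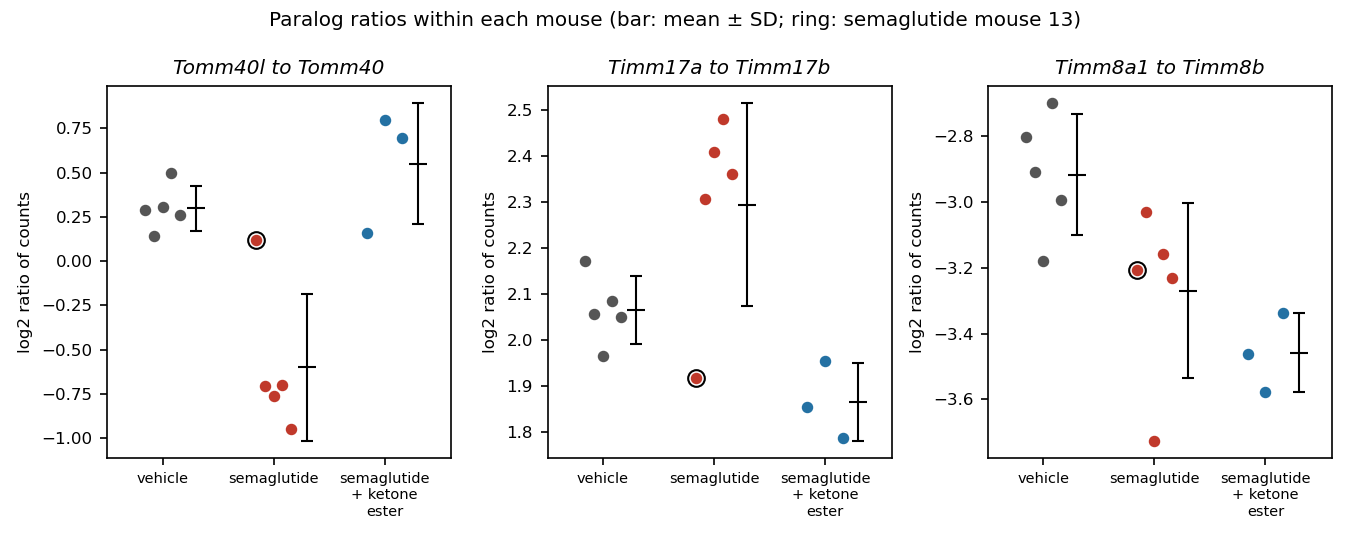
log2 ratio of the counts of 2 paralogous genes within each mouse (y axis), for 3 pairs by group, with the group mean ± SD beside the points and a ring around semaglutide mouse 13. For Tomm40l to Tomm40, the semaglutide-treated mice lie between -0.95 and 0.12, below every mouse of the other groups.

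Of the 3 receptor genes, 0 were called by limma, edgeR or DESeq2, and 0 had an unadjusted limma p under 0.05. Tomm70a, the receptor for carriers held by cytosolic chaperones, had 1293 ± 19.5 in vehicle-treated and 1232 ± 39.2 in semaglutide-treated mice (SD, n = 5 each). Its log2 difference was -0.07, with a 95% interval of -0.20 to 0.06. For Tomm22, the central receptor that organises the complex, the interval was -0.22 to 0.15, and for the presequence receptor Tomm20 it was -0.19 to 0.28. Changes as large as that of Timm22 lie outside these 3 intervals.

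The small subunits Tomm5, Tomm6 and Tomm7, which help to stabilise the TOM complex, were not called either. Tomm5 had the lowest adjusted p of the 3 with 0.082, at 420 ± 36.9 compared with 346 ± 53.7 (SD, n = 5 each) and 4 of 5 semaglutide-treated mice below all vehicle-treated mice. The values were 886 ± 72.4 and 982 ± 67.9 for Tomm6 and 557 ± 31.7 and 587 ± 40.1 for Tomm7. Tomm34, a cytosolic co-chaperone, was nearly equal in both groups, with 248 ± 17.2 and 245 ± 15.8.

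Among the Timm genes followed for the presequence translocase, 0 of 6 were called by limma, edgeR or DESeq2. Of these 6, 1 (Timm21) had an unadjusted limma p under 0.05, and 5 had a negative log2 difference. Timm17a and Timm17b are alternative core subunits beside the channel protein Timm23. Timm17b counts were 380, 418, 402, 334 and 378 in vehicle-treated mice and 451, 352, 256, 190 and 255 in semaglutide-treated mice. Mouse 13 was the highest of these 10 mice, mouse 14 lay within the vehicle range and the other 3 were below it. The log2 difference of -0.41 had an adjusted p of 0.131, and without mouse 13 the gene was called lower. Timm17a counts were 1715, 1742, 1572, 1418 and 1570 in vehicle-treated mice and 1704, 1742, 1362, 1067 and 1314 in semaglutide-treated mice, so that mice 13 and 14 were level with the highest vehicle-treated mice and the other 3 were below all of them. It was not called, with an adjusted p of 0.339.

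The log2 ratio of Timm17a to Timm17b was 2.07 ± 0.08 in vehicle-treated and 2.30 ± 0.22 in semaglutide-treated mice (n = 5 each; exact permutation p = 0.063, adjusted p = 0.082). In mice 14 to 17 it was between 2.31 and 2.48, above all vehicle-treated mice, and in mouse 13 it was 1.92, below all of them. Without mouse 13 the difference was 0.32 with an adjusted p of 0.036.

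Timm23, the channel protein, had 1627 ± 149 and 1825 ± 231 (SD, n = 5 each), the 1 positive difference among the Timm genes of the complex, and was not called. Its transcript is 99.9% identical over 1121 bases to that of Gm10273, which is not analysed here, so that the counting could have divided reads between them. Timm50, the receptor that takes presequences up at the inner membrane, had 547 ± 33.5 and 479 ± 74.7 with an adjusted p of 0.213. Timm44, the anchor of the import motor, had 992 ± 82.0 and 891 ± 58.2 with an adjusted p of 0.176. Timm21, which links the complex to the outer membrane, had 328 ± 40.5 and 279 ± 19.2 with an adjusted p of 0.093.

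The small Tim chaperones keep hydrophobic precursors soluble between the membranes, Timm9 together with Timm10 and Timm8a1 together with Timm13. Of the 5 expressed genes, 0 were called by limma, edgeR or DESeq2, and 1 (Timm8a1) had an unadjusted limma p under 0.05. The log2 differences were 0.19 for Timm9, -0.13 for Timm10, -0.06 for Timm13, 0.01 for Timm8b and -0.34 for Timm8a1, with adjusted p-values between 0.113 and 0.930. The partners Timm9 and Timm10 thus had differences of opposite sign, neither past the threshold.

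Timm8a1 was the least abundant of them, with counts of 129, 106, 94.0, 111 and 105 in vehicle-treated mice and 102, 110, 62.2, 73.8 and 88.8 in semaglutide-treated mice. Relative to its paralog Timm8b, it was lower in both treated groups. The log2 ratio of Timm8a1 to Timm8b was -2.92 ± 0.18 in vehicle-treated, -3.27 ± 0.27 in semaglutide-treated (n = 5 each) and -3.46 ± 0.12 in semaglutide + ketone ester–treated mice (n = 3). The exact permutation p was 0.024 (adjusted p = 0.043) for semaglutide against vehicle and 0.018 (adjusted p = 0.040) for semaglutide + ketone ester against vehicle, where the groups did not overlap. The first was not called without any 1 mouse, with adjusted p-values of 0.051 to 0.089. The second had adjusted p-values of 0.040 to 0.086 and was under 0.05 in 1 of the 13 fits. Timm8a1 shares 612 bases at 100% identity with Gm9797, which is not analysed here.

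Timmdc1 carries a Timm symbol but acts as an assembly factor of respiratory complex I. It had 475 ± 15.0 in vehicle-treated and 416 ± 93.3 in semaglutide-treated mice (SD, n = 5 each), with counts of 298 and 347 in mice 16 and 17 and 532 in mouse 13. Its adjusted p was 0.250.

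Among the 20 genes not called, the 95% interval of the log2 difference lay within 0.50 in either direction for 16. The intervals of Timm17b, Timm8a1, Timmdc1 and Tomm5 reached further. The semaglutide-treated mice also differed among themselves. Mouse 16 was the lowest of the 5 for 15 of the 24 genes and was below every vehicle-treated mouse for 17, whereas mouse 13 was the highest of the 5 for 10 genes and above every vehicle-treated mouse for 13.

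**Figure D3:**
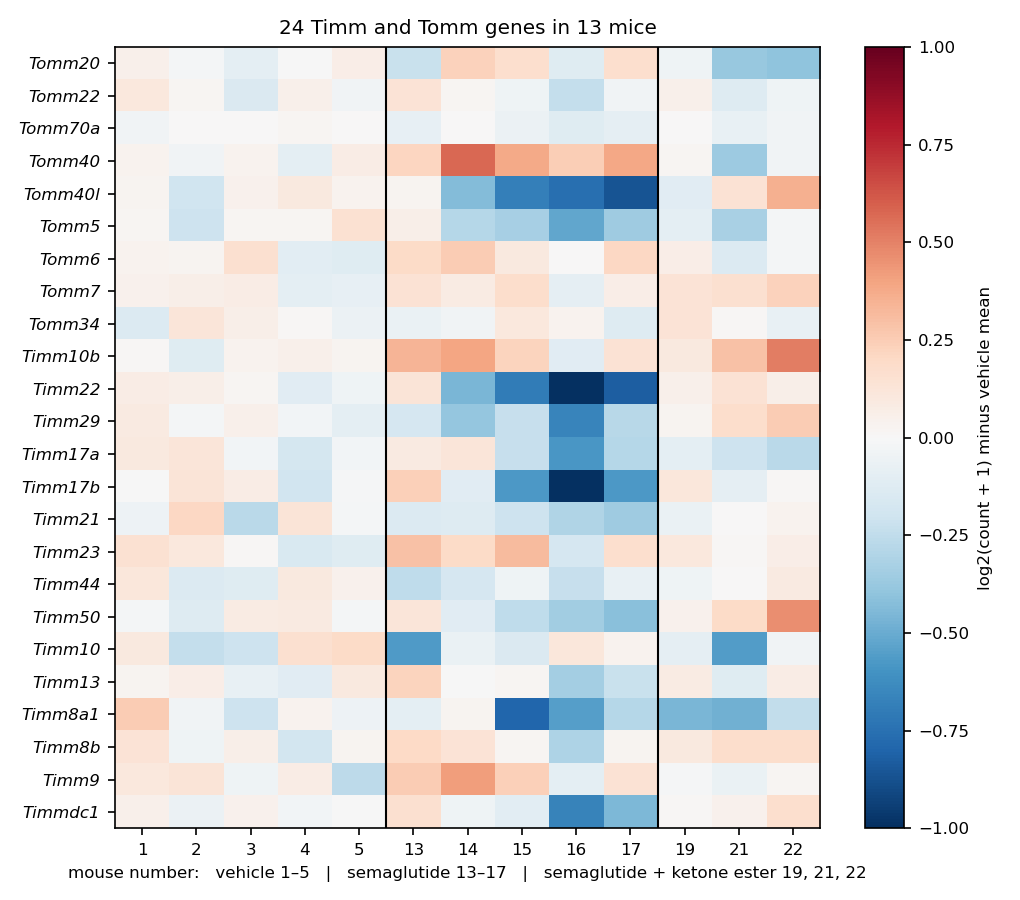
log2(normalized count + 1) of each of the 24 tested genes (rows) in each of the 13 mice (columns), as the difference from the mean of the vehicle-treated mice. Timm22, Timm17b and Tomm40l are lowest in semaglutide mice 15 to 17, whereas mouse 13 of the same group is near or above 0 for them, and Tomm40 is positive in all 5.

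The 24 genes had a median log2 difference of -0.10 and all tested genes a median of -0.003, and with the libraries rescaled to equal totals both medians turned positive, 0.08 for the import genes and 0.17 for all genes. Timm22, Timm29, Tomm40l and Tomm40 kept their signs under that rescaling, with log2 differences of -0.41, -0.17, -0.37 and 0.53, and of these only Tomm40 was called. That rescaling called 6 of the 24 genes higher and 0 lower, and 26.5% and 7.55% of all genes. By comparison, the nuclear genes for subunits of respiratory complexes I to V, 80 by their symbols, had a median of -0.46, with 66 called lower and 0 higher (-0.28, 46 lower and 1 higher with equal totals). These are among the proteins that the import machinery delivers. The symbol pattern that picked the 80 genes cannot match the subunit genes Cox4i1 and Ndufab1, and it takes in Ndufa4l2. Averaged over genes, the log2 difference from the vehicle mean was between -0.68 and -0.30 for the respiratory subunits and between -0.33 and 0.05 for the import genes in the 5 semaglutide-treated mice. In each of the 5 mice the mean of the respiratory subunits was the lower one. The list of respiratory subunits and the lists of other import genes were chosen with earlier results of these data known.

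The second comparison asked how the same genes stood when the ketone ester was given with semaglutide. Compared with semaglutide-treated mice, semaglutide + ketone ester–treated mice had higher Timm22, Timm29, Tomm40l and Timm50 and lower Tomm40. The 4 higher genes make up 16.7% of the 24, and 9.09% of all tested genes were called higher. The 1 lower gene makes up 4.17%, and 9.30% of all genes were called lower. Groups did not overlap for 3 genes, Timm21, Timm29 and Tomm40, and for 20.1% of all genes. Both this comparison and the preceding one use the same 5 semaglutide-treated mice, so that opposite signs in them are not independent. In a fit of only these 2 groups, 0 of the 24 genes were called, with adjusted p-values of 0.067 for Timm29 and Tomm40, 0.094 for Tomm40l and 0.12 for Timm22 and Timm50.

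**Figure D4:**
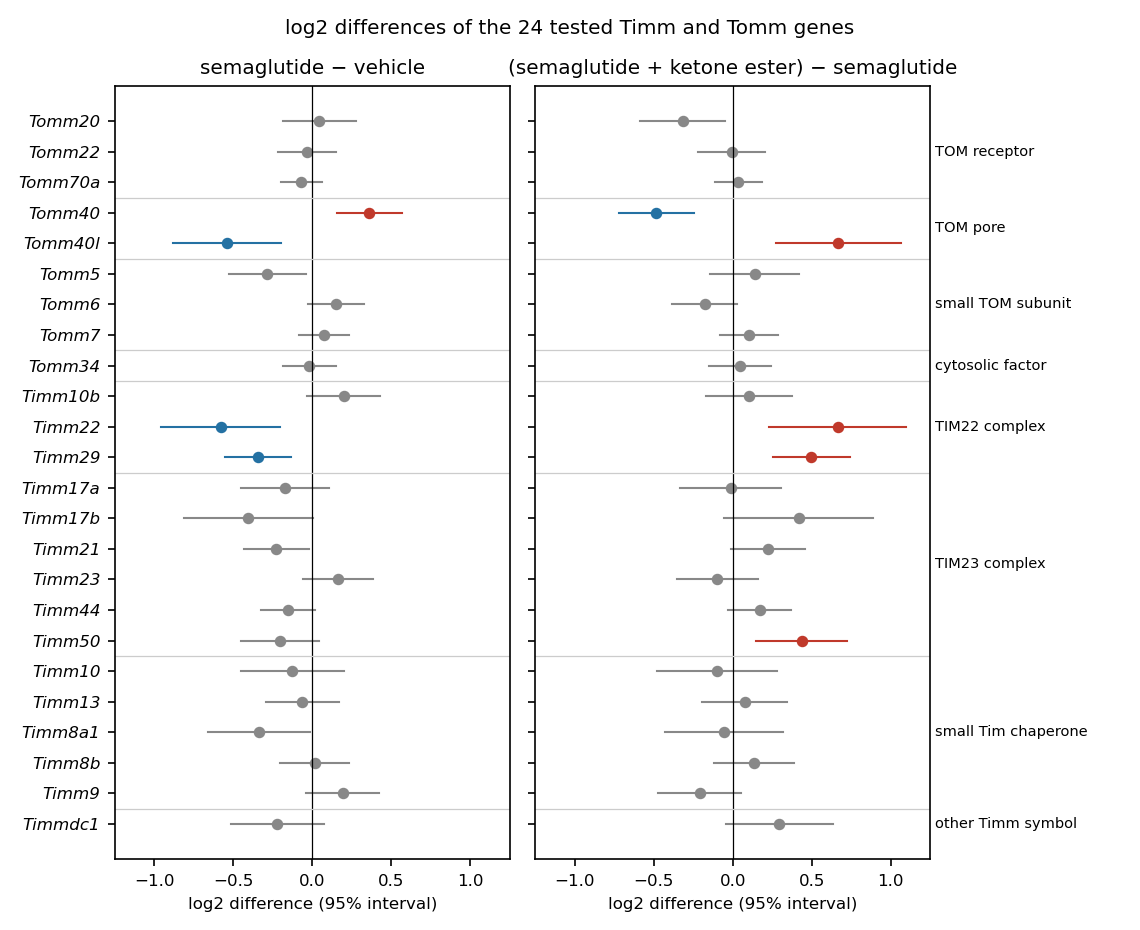
log2 difference with its 95% interval (x axis) for each of the 24 genes, ordered by complex, for semaglutide minus vehicle (left) and semaglutide + ketone ester minus semaglutide (right). Red marks genes called higher (Tomm40 on the left, and Timm22, Timm29, Timm50 and Tomm40l on the right), blue genes called lower, and gray genes that were not called.

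With only 3 mice in the combined group, these counts moved widely when mice were left out. The number of import genes called higher was 3 without vehicle mouse 1, 2 or 4 or semaglutide + ketone ester mouse 19, 2 without vehicle mouse 3 or 5 or semaglutide mouse 14 or 16, and 1 without semaglutide mouse 15 or 17. It was 0 without semaglutide + ketone ester mouse 21 or mouse 22. Without semaglutide mouse 13 it was 6, with Timm17b and Timmdc1 added, when 15.9% of all genes were called higher. The number called lower was 0 without semaglutide + ketone ester mouse 21 and 2, with Tomm20 added, without semaglutide mouse 13 or semaglutide + ketone ester mouse 19. Without semaglutide mouse 13, 16.2% of all genes were called lower.

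For the carrier translocase, Timm22 counts were 462, 492 and 465 in mice 19, 21 and 22. All 3 were above semaglutide mice 14 to 17, and semaglutide mouse 13, at 486, was between them. Its log2 difference from semaglutide-treated mice was 0.66 (SE 0.20, adjusted p = 0.037), and it was called without vehicle mouse 1, vehicle mouse 4 or semaglutide mouse 13 and in none of the other 10 fits with 1 mouse left out, in which the adjusted p reached 0.12. Without semaglutide mouse 13 the difference was 0.84 (adjusted p = 0.00053). Timm29 counts were 1552, 1721 and 1817, all above every semaglutide-treated mouse. Its log2 difference was 0.50 (SE 0.11, adjusted p = 0.011), and it was not called without semaglutide + ketone ester mouse 21 or 22, with an adjusted p of up to 0.062, and was 0.54 without semaglutide mouse 13.

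Tomm40 counts were 564, 432 and 541, all below every semaglutide-treated mouse. The log2 difference was -0.49 (SE 0.11, adjusted p = 0.011), lost among the fits with 1 mouse left out only without mouse 21 (adjusted p = 0.065), and it was -0.52 without semaglutide mouse 13. Tomm40l counts were 630, 754 and 876. Mouse 19 was below semaglutide mouse 13 and above the other 4, and mice 21 and 22 were above all 5. For Tomm40l the log2 difference was 0.67 (SE 0.18, adjusted p = 0.025), and the call was lost without semaglutide mouse 15 or 17 or semaglutide + ketone ester mouse 21 or 22, when the adjusted p reached 0.12. Without semaglutide mouse 13 the difference was 0.81 (adjusted p = 0.0010).

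The ratio of Tomm40l to Tomm40 was 1.12, 1.74 and 1.62 in these 3 mice, all above every semaglutide-treated mouse. The log2 ratio differed by 1.15 between the groups, with an exact permutation p of 0.018, the smallest that 3 against 5 mice allow (adjusted p = 0.040). Without any 1 mouse the difference was between 1.03 and 1.35 and the adjusted p between 0.043 and 0.10, under 0.05 only without semaglutide mouse 13. In the same comparison the log2 ratio of Timm17a to Timm17b differed by -0.43 (exact permutation p = 0.054, adjusted p = 0.080). That of Timm8a1 to Timm8b differed by -0.19 (exact permutation p = 0.30, adjusted p = 0.30).

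Timm50, the presequence receptor, was called in this comparison and not in the first. Its counts were 562, 624 and 752 in semaglutide + ketone ester–treated mice and 596, 504, 458, 428 and 408 in semaglutide-treated mice. Mouse 19 was below semaglutide mouse 13 and the groups overlapped. The log2 difference was 0.44 (SE 0.13, adjusted p = 0.038), and it was called in only 3 of the 13 fits with 1 mouse left out (vehicle mouse 2, semaglutide mouse 13 or semaglutide + ketone ester mouse 19), with a difference of 0.52 (adjusted p = 0.0053) without mouse 13. The other 5 Timm genes of the presequence translocase were not called. Timm17b was at 385 ± 27.7 (SD, n = 3), a log2 difference of 0.42 from semaglutide-treated mice with an adjusted p of 0.196. Timm21 counts of 312, 327 and 334 were all above those of the semaglutide-treated mice, 254 to 298, with an adjusted p of 0.172.

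Tomm20 was the 1 receptor with a low unadjusted p in this comparison. Its counts were 977, 773 and 762 in semaglutide + ketone ester–treated mice and 860, 1181, 1126, 924 and 1131 in semaglutide-treated mice, with a log2 difference of -0.32 and an adjusted p of 0.092. No small TOM subunit and no small Tim chaperone was called, and the largest difference among them was -0.21 for Timm9. Among the 19 genes not called, 16 had a 95% interval within 0.50 in either direction.

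The median log2 difference of the 24 genes was 0.09 and that of all tested genes was 0, and with equal totals these were -0.15 and -0.24. With that rescaling the 5 called genes kept their signs, but Timm22 (0.43, adjusted p = 0.078), Tomm40l (0.43, adjusted p = 0.072) and Timm50 (0.20, adjusted p = 0.24) were not called and Timm29 was at 0.26. It called 1 of the 24 genes higher and 6 lower, and 4.97% and 29.2% of all genes. The 80 respiratory subunit genes had a median of 0.57, with 70 called higher and 0 lower (0.34, 48 higher and 2 lower with equal totals).

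In the third comparison, semaglutide + ketone ester–treated mice were set against vehicle-treated mice, and 0 of the 24 genes were called by limma. Of all tested genes, 0.236% were called in either direction. At an unadjusted p under 0.05, 1 import gene was higher (Timm10b) and 2 were lower (Timm8a1 and Tomm20), and edgeR and DESeq2 on the recovered reads also called 0. Timm10b counts of 290, 333 and 387 were all above the vehicle-treated mice, 249 to 282, with a log2 difference of 0.30 and an adjusted p of 0.420. Groups also did not overlap for Timm8a1, which was lower, and Tomm7, which was higher (adjusted p = 0.449 and 0.495). The share of all genes without overlap was not counted for this comparison. For 16 of the 24 genes the 95% interval lay within 0.50 in either direction. The interval was -0.35 to 0.52 for Timm22, -0.27 to 0.52 for Tomm40l, -0.09 to 0.40 for Timm29 and -0.36 to 0.11 for Tomm40. The log2 ratio of Timm17a to Timm17b was 0.20 lower than in vehicle-treated mice, with groups that did not overlap (exact permutation p = 0.018, adjusted p = 0.040). That call held in 1 of the 13 fits with 1 mouse left out, and the adjusted p reached 0.086. For Tomm40l to Tomm40 the log2 ratio differed by 0.25 (exact permutation p = 0.16, adjusted p = 0.18).

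The study's methods ask for an unadjusted p under 0.05 in a one-way analysis of variance and a fold change of 1.5 or more, without naming the groups of the fold change. With the fold change taken here between the highest and the lowest group mean, 2 of the 24 genes and 16.1% of all tested genes were altered. They were Timm22, with a ratio of 1.52, and Tomm40l, with a ratio of 1.56. Timm29 and Tomm40 had the lowest p-values of the 24, 0.00071 and 0.00099, but ratios of 1.40 and 1.40. Without the condition on the ratio, 8 of 24 genes passed, compared with 37.3% of all genes. With both conditions kept, the number was 1 without semaglutide mouse 15 or 16 or semaglutide + ketone ester mouse 21 or 22, and 0 without semaglutide mouse 17.

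Other genes of the import route were taken from 5 lists with 28 tested genes. Compared with vehicle-treated mice, 2 were higher and 5 lower in semaglutide-treated mice, where 11.9% and 13.2% of all genes were called, and the median log2 difference was -0.13. With equal totals the median was 0.04, with 7 higher and 2 lower, where 26.5% and 7.55% of all genes were called. Among the peptidases that remove presequences, Pmpcb, a subunit of the processing peptidase, was lower by -0.56 and Mipep, which trims some of the products, by -0.40, 2 of 6 in the list. In the intermembrane space, 2 of 6 were lower and 1 higher. Chchd10 fell by 0.62 on the log2 scale and Chchd4, the oxidoreductase of the disulfide relay, by 0.47, and Gfer, which reoxidises it, rose by 0.70. Gfer counts were 628 ± 67.8 in vehicle-treated and 1023 ± 143 in semaglutide-treated mice (SD, n = 5 each).

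For the import motor beside Timm44, 1 of 8 genes was higher, the nucleotide exchange factor Grpel1 at 0.27, and the motor chaperone Hspa9 was at 8438 ± 540 and 9548 ± 1269 (SD, n = 5 each) and not called. In the outer membrane list 1 of 6 was lower, Mtx2 at -0.44, a partner of the sorting and assembly channel Samm50. The inner membrane insertases Oxa1l and Cox18 were not called. These 7 called genes kept their signs with equal totals, but Mtx2 (-0.26, adjusted p = 0.069), Mipep (-0.23, adjusted p = 0.075) and Chchd4 (-0.29, adjusted p = 0.076) were not called. Without semaglutide mouse 13, the 28 genes had 3 called higher and 9 lower, and 17.3% and 18.8% of all genes were called.

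In semaglutide + ketone ester–treated compared with semaglutide-treated mice, 5 of the 28 were higher and 1 was lower, where 9.09% and 9.30% of all genes were called, with a median of 0.18. With equal totals the median was -0.06, with 2 higher and 7 lower, and without semaglutide mouse 13 there were 9 higher and 3 lower. Of all genes, 4.97% were called higher and 29.2% lower with equal totals, and 15.9% and 16.2% without that mouse. The higher genes were Chchd10 at 0.72, Pmpcb at 0.66, the motor co-chaperones Dnajc15 at 0.61 and Dnajc19 at 0.41, and Aifm1, which binds Chchd4, at 0.35. Gfer fell by 0.61 on the log2 scale. With equal totals all 6 kept their signs, but Dnajc15 (0.38, adjusted p = 0.067), Dnajc19 (0.18, adjusted p = 0.17) and Aifm1 (0.12, adjusted p = 0.48) were not called. Compared with vehicle-treated mice, 0 were called by limma, with 1 higher and 1 lower at an unadjusted p under 0.05.

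Proteins that meet the imported precursors before or after the translocases were followed in 3 further lists. Of all genes, 11.9% were called higher and 13.2% lower for semaglutide against vehicle. For semaglutide + ketone ester against semaglutide these shares were 9.09% and 9.30%. Of 11 mitochondrial chaperones and proteases, the co-chaperonin Hspe1 was higher (0.44) and the proteases Oma1 (-0.45) and Lonp1 (-0.32) were lower under semaglutide than under vehicle. Of 9 genes for cristae junction proteins and prohibitins, Phb2 was higher (0.57) and Micos10 (-0.56), Apool (-0.55) and Immt (-0.25) were lower. Of 9 cytosolic chaperones that deliver precursors, Hsp90ab1 (0.53) and Ubqln1 (0.36) were higher and 0 were lower. When the ketone ester was added to semaglutide, the called genes were Oma1 (0.50) and Hspe1 (-0.56) in the first list. In the second they were Apool (0.70), Micos10 (0.52), Phb (0.52), Immt (0.35) and Phb2 (-0.58). In the third they were Hsp90aa1 (-0.71), Hsp90ab1 (-0.67) and Ubqln1 (-0.37).

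With equal totals the called genes of these 3 lists kept their signs, and 5 calls were lost. They were Lonp1 (-0.15, adjusted p = 0.19) and Immt (-0.08, adjusted p = 0.47) for semaglutide against vehicle, and Immt (0.12, adjusted p = 0.32), Micos10 (0.29, adjusted p = 0.094) and Phb (0.28, adjusted p = 0.087) when the ketone ester was added. Further genes of these lists were called only with equal totals. Semaglutide against vehicle then gave 4 higher and 1 lower in the first list, 3 and 2 in the second and 5 and 0 in the third. Adding the ketone ester then gave 1 higher and 5 lower, 1 and 1, and 0 and 8. Of all genes, 26.5% were then called higher and 7.55% lower in the former comparison, and 4.97% and 29.2% in the latter. Without semaglutide mouse 13, semaglutide against vehicle gave 2 higher and 2 lower in the first list, 1 and 3 in the second and 4 and 0 in the third. Adding the ketone ester gave 1 higher and 2 lower, 4 and 1, and 0 and 4. Without that mouse, 17.3% of all genes were called higher and 18.8% lower for semaglutide against vehicle. The shares were 15.9% and 16.2% when the ketone ester was added.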

How the data were processed

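Gastrocnemius RNA of 13 mice was sequenced as paired-end 59 bp reads from stranded mRNA libraries. Per the labels, the reads were processed with DRAGEN, DESeq2 and the mm10 genome. The authors deposited 1 table of normalized counts per gene, a signal on a linear scale, with 1 column per mouse. The counting program, its use of strand and the gene annotation are not given in the sources used here. Each value was a whole multiple of 1 step per mouse (100% of values, tolerance 0.02 reads), from which reads were recovered.

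Groups came from the treatment labels, and each replicate is 1 mouse. Members and lists were chosen with earlier results of these data known. Every member is named, with per-mouse values for members called in any comparison and for paralog pairs, plus up to 4 called genes of each companion list with the largest differences. Genes called only when the ketone ester was added (Dnajc15, Dnajc19, Aifm1, Phb and Hsp90aa1) were named after their values were seen. Genes with a mean of at least 10 were tested on log2(normalized count + 1) with limma 3.58.1 (R 4.3.3), all 3 groups in 1 model, Benjamini-Hochberg adjusted, threshold 0.05. A pseudocount of 1 understates changes of low genes. Paralog ratios were compared by exact permutation tests, adjusted over 9 comparisons (SciPy 1.17.1 gave the analysis of variance). Genes were matched to GENCODE vM21 and RefSeq, near-identical transcripts with BLAST+ 2.17.0. edgeR 4.0.16 and DESeq2 1.42.0 on the recovered reads, other scalings, filters and pseudocounts, array weights and leaving out each mouse were alternatives, and a mean-variance trend was added after the data were seen. Simulated data, with the same spread setting for every gene, were run through limma, edgeR, DESeq2 and the analysis of variance, but not the permutation tests. At these depths 3 reads are 2.24 to 3.71 normalized counts, counting error alone considered.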

Additional observations from a re-analysis of the deposited data

Results flagged for a closer look

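Values within each group of 5 mice were screened for a single mouse far from the rest, by the gap to its nearest neighbour divided by the range of the group. In 54 groups of values, 4 were past the 95% critical value of 0.710, and chance flags about 1 in 20. The vehicle-treated mouse with a Timm10b count of 249 (gap 0.749 of the range) and the one with a Tomm40l count of 596 (0.741) were low in their groups, both being vehicle mouse 2. Among semaglutide-treated mice, mouse 13 was high in the log2 ratio of Tomm40l to Tomm40, at 0.118 (0.768), and mouse 15 was low in that of Timm8a1 to Timm8b, at -3.73 (0.711).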

How the results depend on the processing

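The number of Timm and Tomm genes called lower under semaglutide than under vehicle was 3, and it was 8 with array weights and 0 with columns rescaled to equal totals, when 6 were called higher instead of 1 (26.5% of all genes higher, 7.55% lower) and the median log2 difference was 0.076 instead of -0.098. For semaglutide + ketone ester against semaglutide (4 higher, 1 lower), equal totals gave 1 higher and 6 lower (4.97% and 29.2% of all genes) and a median of -0.149, array weights 2 lower, no filter 2 higher, and a fit of only the 2 groups compared 0 in each direction. The shares of all genes called were not counted with array weights, with no filter or in fits of only the 2 groups compared. The study's criterion without its fold condition gave 8 genes instead of 2. Leaving out 1 mouse gave 0 to 6 genes lower and 1 higher for semaglutide against vehicle, 0 to 6 higher and 0 to 2 lower for semaglutide + ketone ester against semaglutide, and 0 to 2 by the study's criterion. In the same fits the log2 paralog differences were -1.079 to -0.812 (semaglutide against vehicle), 1.028 to 1.348 (semaglutide + ketone ester against semaglutide) and 0.129 to 0.448 (semaglutide + ketone ester against vehicle) for Tomm40l to Tomm40. For Timm17a to Timm17b they were 0.183 to 0.324, -0.524 to -0.383 and -0.245 to -0.161, and for Timm8a1 to Timm8b -0.419 to -0.239, -0.303 to -0.129 and -0.608 to -0.483. No direction reversed for any paralog ratio or for a member with an unadjusted p under 0.05 for semaglutide against vehicle or semaglutide + ketone ester against semaglutide, and single members were not followed for semaglutide + ketone ester against vehicle. The cause of these differences between settings was not tested. No paired analysis was possible because the groups share no replicate numbers.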
